A study of Mus musculus with 40 samples.

Results

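The family described here is the interleukin-11 (IL11) receptor, its signalling partner gp130 and their closest relatives: the ligands *Il11*, *Lif*, *Clcf1* and *Ctf1* and the receptor chains *Il11ra1*, *Il6ra*, *Il6st*, *Osmr* and *Lifr*. These 9 genes were chosen by name, and 8 of them were listed in each of the expression tables of male (17646 genes) and female (17223 genes) mouse hearts. *Lif* was listed in neither table and is not analysed here. The RNA came from hearts (ventricle, by the study's methods) of CM-Il11-Tg mice, which carry 1 allele of α-MHC-MerCreMer (MCM), a cardiomyocyte-driven Cre that acts after tamoxifen (C57BL/6J background), and 1 allele of Rosa26-Il11, in which murine *Il11* follows a floxed stop (C57BL/6N background). Induced animals received tamoxifen by intraperitoneal injection from 8 weeks of age, 20 mg/kg on each of 5 days, and hearts were taken 1, 3 or 6 weeks later. Controls, whose genotype is labelled WT, were littermates with MCM but without Rosa26-Il11 by the study's methods, and they too received tamoxifen. Uninduced animals were CM-Il11-Tg mice without tamoxifen, so they differed from the controls in both genotype and treatment. Control and uninduced libraries are both labelled Baseline, with no time after tamoxifen, so 1 control group per sex was the reference for all 3 times, and effects of age or of time since tamoxifen cannot be told apart from those of induction. Every group therefore carried MCM, and the promoter restricts recombination, but not the response to a secreted protein, to cardiomyocytes. Each group held 4 libraries per sex, except for 3 male control and 3 male 6-week libraries, because 2 of the 40 libraries had labels that contradict each other and entered no comparison.

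Cytokines of this family act through gp130, the shared signal-transducing chain encoded by *Il6st*. IL11 first binds its own receptor chain (*Il11ra1*) and interleukin-6 binds *Il6ra*, and either complex then brings gp130 molecules together. Leukaemia inhibitory factor, cardiotrophin-1 (*Ctf1*) and cardiotrophin-like cytokine (*Clcf1*) use gp130 paired with *Lifr*, and oncostatin M uses gp130 paired with *Osmr*, or in mice less readily with *Lifr*. Bound receptors activate JAK kinases and the transcription factor STAT3, which induces feedback inhibitors such as *Socs3*. In the heart, IL11 receptor is known from fibroblasts and also from cardiomyocytes.

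The libraries held between 16663513 and 65333832 reads on listed genes in males and between 19147947 and 30929192 in females. Values were CPM (read counts scaled for library size), and sexes were normalised separately, so no test spans both. Within groups, the median correlation of a library with the others of its group ranged from 0.955 to 0.993, and male 6-week replicate 4 was the library at 0.955. Cardiomyocyte markers were abundant in every library (10 genes summing to 36664 CPM or more), as the label heart requires. Each library carries the number of a different heart in its labels. RNA from whole tissue cannot distinguish fewer cells of a type from less RNA per cell, and this applies to every value that follows.

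*Osmr* and *Lifr* are neighbours on chromosome 15 (GRCm39 build, GENCODE annotation). *Osmr* lies on the minus strand at chr15:6843053-6904450 and *Lifr* on the plus strand at chr15:7120095-7226970, so they point away from each other, with 254531 bases between the starts of their canonical transcripts. The 250 bases before these starts are shown here because *Osmr* was called higher and *Lifr* lower than control in females at all 3 times and in males at 1 week, each written 5′ to 3′ on the gene's own strand (chr15:6904451-6904700 for *Osmr* and chr15:7158731-7158980 for *Lifr*, whose start used here lies within a longer annotated form of the gene).
Osmr upstream: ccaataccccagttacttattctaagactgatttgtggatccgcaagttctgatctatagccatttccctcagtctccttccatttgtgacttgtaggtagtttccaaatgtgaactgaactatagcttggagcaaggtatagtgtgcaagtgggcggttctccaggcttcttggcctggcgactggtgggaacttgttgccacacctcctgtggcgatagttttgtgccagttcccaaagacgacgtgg
Lifr upstream: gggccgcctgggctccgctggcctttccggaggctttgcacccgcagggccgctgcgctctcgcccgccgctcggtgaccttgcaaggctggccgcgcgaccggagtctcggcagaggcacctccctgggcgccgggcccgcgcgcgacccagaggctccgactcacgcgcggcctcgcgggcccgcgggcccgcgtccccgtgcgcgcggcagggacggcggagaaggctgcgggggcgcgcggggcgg
Neither stretch, nor that of any other member, held the palindrome TTCNNNGAA, which reads the same on both strands and is the core that STAT proteins are known to bind. Among 21757 protein-coding genes, 7.70% held it within 250 bases before the start. Within 1000 bases, a window in which 28.6% of all these genes held it, there was 1 match before *Osmr*, beginning 344 bases upstream, and 1 before *Il6ra*, beginning 666 bases upstream. Both are printed with 50 bases on each side and the match in capitals (chr15:6904736-6904844 and chr3:89821111-89821219, both minus strand).
Osmr match: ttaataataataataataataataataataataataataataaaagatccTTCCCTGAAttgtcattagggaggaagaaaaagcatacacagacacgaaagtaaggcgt
Il6ra match: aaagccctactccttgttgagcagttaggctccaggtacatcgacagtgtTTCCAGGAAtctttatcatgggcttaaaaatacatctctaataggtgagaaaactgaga
The other members listed, *Il11ra1*, *Il6st*, *Lifr*, *Clcf1*, *Ctf1* and *Il11*, had no match in 1000 bases. As for *Lifr*, the starts used for *Il11ra1*, *Il6ra* and *Il11* lie within longer annotated forms of the gene, and other starts were not searched. A match describes letters and is not evidence of binding.

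*Il11*, the ligand encoded by the transgene, was almost undetected in controls, present at a low level before tamoxifen and abundant afterwards. Male controls had 0, 0.114 and 0.147 CPM and female controls 0.0431, 0.145, 0 and 0.166 CPM. Uninduced males had 18.4, 23.3, 20.1 and 16.5 CPM, and uninduced females 21.2, 21.4, 49.1 and 15.5 CPM. No uninduced library reached the range of the controls. In induced males the level was 351, 410, 375 and 712 CPM at 1 week, 529, 336, 422 and 398 CPM at 3 weeks and 485, 407 and 819 CPM at 6 weeks. Induced females had 461, 447, 414 and 614 CPM at 1 week, 504, 541, 445 and 488 CPM at 3 weeks and 497, 436, 328 and 590 CPM at 6 weeks. The levels of the 3 time points overlapped in each sex. The mean of the induced groups was 23.6, 21.5 and 29.1 times that of uninduced males at 1, 3 and 6 weeks, and 18, 18.4 and 17.3 times that of uninduced females. Since no female control held more than 3 reads of *Il11*, the uninduced females were at least 161-fold higher than controls when set against a floor of 3 reads per library, a limit that covers counting error only. The male controls held up to 9 reads, and the uninduced males differed from them by a log2 fold change of 5.09 ± 0.23 (SE, adjusted p = 3.79e-11). These values come from the gene that the design expresses and so check the labels. They do not separate reads of the transgene from those of the endogenous gene at chr7:4775372-4785858.

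**Figure D1:**
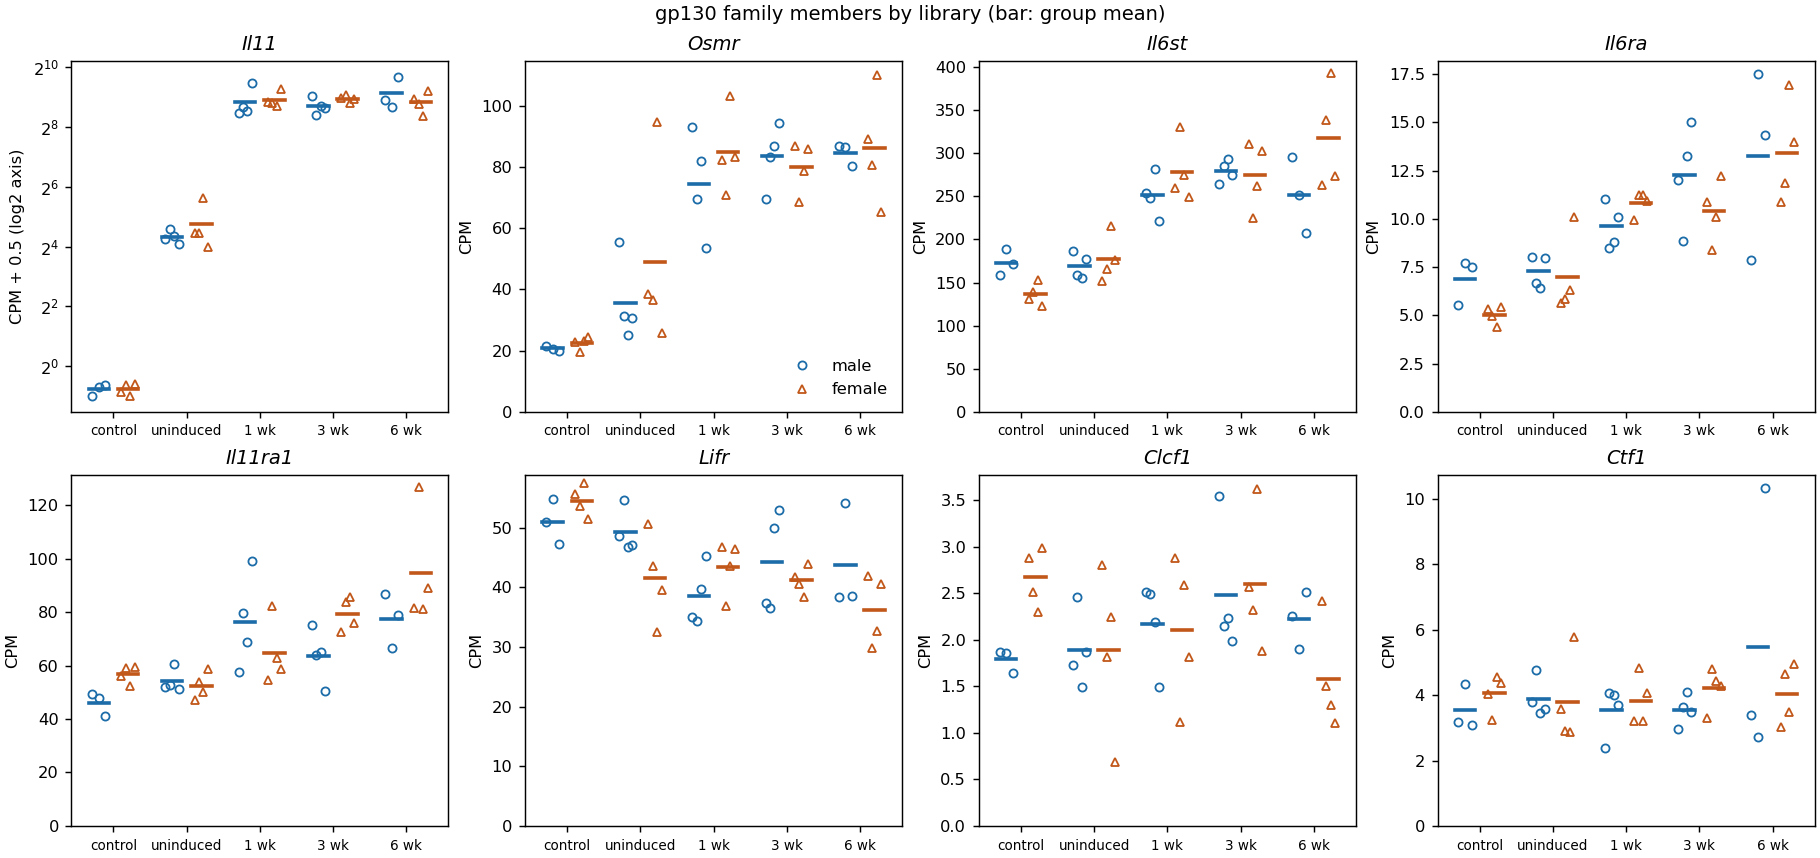
CPM of the 8 listed members in every library by group, with circles for males, triangles for females and bars for group means; *Il11* is drawn as CPM + 0.5 on a log2 axis and the others on linear axes from 0. *Osmr* rises from 19.6 to 24.5 CPM in controls to 53.7 CPM or more in all induced libraries, whereas *Lifr* sits mostly below its control values.

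Of the 7 members other than *Il11*, the receptor chains changed and the ligands did not pass the test. Against control, with limma on log2(CPM + 0.5) and Benjamini-Hochberg adjustment over all 16931 male or 16956 female genes tested, 3 rose and 1 fell in males at 1 week (33.5% of all genes called), 4 rose at 3 weeks (21.3%) and 4 rose at 6 weeks (27.1%). In females 3 rose and 1 fell at 1 week (28.4% of all genes called), 4 rose and 1 fell at 3 weeks (31.3%) and 4 rose and 1 fell at 6 weeks (42.7%). The median log2 fold change of the 7 genes was 0.45, 0.45 and 0.53 at the successive times in males and 0.17, 0.48 and 0.71 in females, where the median of all genes tested lay between -0.02 and 0.02. *Osmr* and *Il6st* were called at every time in both sexes. These comparisons share their controls within a sex. Induced and control libraries did not overlap for 40.9%, 33.1% and 37.7% of all tested male genes at 1, 3 and 6 weeks. The female shares were 32.8%, 37.5% and 37.5%, and the separations of single members given below stand beside them.

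**Figure D2:**
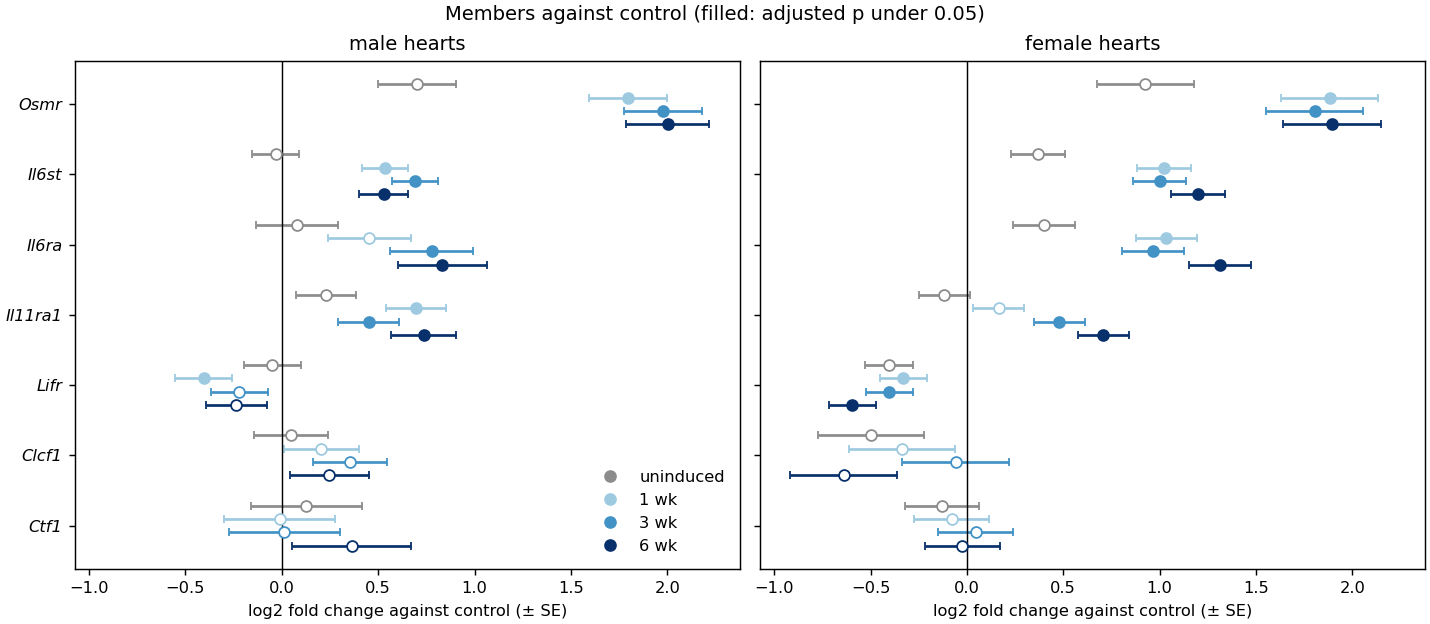
Log2 fold change against control with its standard error for the 7 members other than *Il11*, in males (left) and females (right), for uninduced hearts and 1, 3 and 6 weeks after tamoxifen; filled points have an adjusted p under 0.05. At each time after induction, *Osmr* lies between 1.79 and 2.00, *Il6st*, *Il6ra* and *Il11ra1* lie above 0, and *Lifr* lies below 0. In uninduced hearts *Il6st* lies at -0.03 in males and *Il11ra1* at -0.12 in females.

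*Osmr*, the oncostatin M receptor chain, had the largest change of the 7. Male controls had 21.5, 20.6 and 19.99 CPM, against 93.1, 69.7, 81.9 and 53.7 CPM at 1 week, 69.6, 83.2, 86.9 and 94.5 CPM at 3 weeks and 86.9, 86.5 and 80.2 CPM at 6 weeks. Female controls had 23.0, 19.6, 23.1 and 24.5 CPM, against 82.2, 70.9, 103 and 83.4 CPM at 1 week, 87.0, 68.6, 78.8 and 85.9 CPM at 3 weeks and 89.1, 80.7, 110 and 65.4 CPM at 6 weeks. Every induced library exceeded every control, and the lowest was male 1-week replicate 4. From the earliest to the latest time, the log2 fold change in males was 1.79 ± 0.20 (SE, adjusted p = 1.72e-06), 1.98 ± 0.20 (4.80e-07) and 2.00 ± 0.22 (9.43e-07). The female values were 1.88 ± 0.25 (8.72e-06), 1.80 ± 0.25 (1.26e-05) and 1.89 ± 0.25 (5.15e-06). Each call held without any 1 library and under every other setting tried.

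*Il6st*, which encodes gp130, rose in both sexes. Male controls had 159, 188 and 172 CPM, and the induced males had 254, 248, 281 and 221 CPM at 1 week, 265, 285, 293 and 274 CPM at 3 weeks and 296, 252 and 207 CPM at 6 weeks. Female controls had 131, 139, 153 and 123 CPM, and the induced females had 260, 330, 275 and 250 CPM at 1 week, 310, 225, 262 and 303 CPM at 3 weeks and 264, 339, 393 and 273 CPM at 6 weeks. No induced library overlapped the controls of its sex. The log2 fold change was 0.53 ± 0.12 (SE, adjusted p = 0.00203), 0.69 ± 0.12 (0.000267) and 0.53 ± 0.13 (0.00447) in males, and 1.02 ± 0.14 (1.00e-05), 1.00 ± 0.14 (1.10e-05) and 1.2 ± 0.14 (7.95e-07) in females. The female estimates were the larger at each time, but the control levels of the 2 tables also differed and the difference between sexes was not tested. When only the 2 groups entered the fit, the male 6-week call was lost (adjusted p = 0.0593).

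*Il6ra*, the interleukin-6 receptor chain, was a low-level gene that rose in females at all times and in males from 3 weeks. Female controls had 5.34, 4.98, 4.40 and 5.43 CPM, and induced females had 9.96, 11.2, 11.2 and 10.9 CPM at 1 week, 10.9, 8.36, 10.1 and 12.2 CPM at 3 weeks and 10.9, 11.9, 16.9 and 14 CPM at 6 weeks, with no overlap at any time. The log2 fold change in females was 1.04 ± 0.16 (SE, adjusted p = 4.99e-05), 0.97 ± 0.16 (9.22e-05) and 1.31 ± 0.16 (1.57e-06). Male controls had 5.51, 7.69 and 7.52 CPM and induced males 11, 8.48, 8.78 and 10.1 CPM at 1 week, 12, 8.87, 13.2 and 15.0 CPM at 3 weeks and 7.87, 17.5 and 14.3 CPM at 6 weeks. All induced males lay above the controls, the closest being 6-week replicate 1 at 7.87 CPM. The male log2 fold change was 0.45 ± 0.21 (adjusted p = 0.110) at 1 week, then 0.78 ± 0.21 (0.0126) and 0.83 ± 0.23 (0.0105). Control replicate 1 had the lowest male value, and without it the 3-week and 6-week calls were lost (adjusted p = 0.0794 and 0.0569). The 6-week call was also lost without 6-week replicate 3 (adjusted p = 0.0620). With only the 2 groups fitted, the 6-week call was lost (adjusted p = 0.0725) and the 1-week difference was called (0.0471).

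*Il11ra1*, the receptor chain for IL11 itself, rose in males at all 3 times and in females at 3 and 6 weeks. Male controls had 49.4, 47.8 and 41.2 CPM and induced males 57.7, 79.6, 68.7 and 99.1 CPM at 1 week, 75.3, 63.8, 64.9 and 50.5 CPM at 3 weeks and 86.6, 66.6 and 79.0 CPM at 6 weeks. Female controls had 56.0, 59.2, 52.4 and 59.6 CPM and induced females 54.6, 82.1, 62.6 and 58.6 CPM at 1 week, 72.5, 83.7, 85.5 and 76.0 CPM at 3 weeks and 81.7, 127, 81 and 88.9 CPM at 6 weeks. The groups overlapped in 1 case, females at 1 week. The log2 fold change in males was 0.70 ± 0.16 (SE, adjusted p = 0.00212), 0.45 ± 0.16 (0.0469) and 0.74 ± 0.17 (0.00277), and in females 0.17 ± 0.13 (0.377), 0.48 ± 0.13 (0.00884) and 0.71 ± 0.13 (0.000248). The male 3-week call was lost when any 1 of 6 of its 7 libraries was left out, the exception being 3-week replicate 4, and with all libraries kept under median-of-ratios scaling (adjusted p = 0.0515). *Il11ra1* (chr4:41699989-41769485, plus strand) shares sequence with nearby copies, and 34.4% of its 60-base windows, the length of a read, occur unchanged in *Il11ra2* and 41.9% in *Il11ra3*, so how reads were divided between them is uncertain. *Il11ra2*, listed at 9.57 to 32.1 CPM, gave log2 fold changes of 0.78 ± 0.16, 0.58 ± 0.16 and 0.97 ± 0.17 in males and 0.39 ± 0.12, 0.65 ± 0.12 and 0.88 ± 0.12 in females, all 6 with an adjusted p of 0.0228 or less.

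*Lifr*, the receptor chain for leukaemia inhibitory factor, was lower than control in females at all 3 times and in males at 1 week. Female controls had 55.6, 53.7, 57.4 and 51.4 CPM and induced females 46.7, 36.9, 43.5 and 46.5 CPM at 1 week, 41.7, 40.6, 38.4 and 43.9 CPM at 3 weeks and 42, 29.9, 32.6 and 40.6 CPM at 6 weeks, all below the controls. The log2 fold change in females was -0.33 ± 0.12 (SE, adjusted p = 0.0493), -0.40 ± 0.12 (0.0166) and -0.59 ± 0.12 (0.000649). Male controls had 50.9, 54.9 and 47.2 CPM and induced males 35.0, 34.4, 39.7 and 45.3 CPM at 1 week, 37.4, 36.5, 50.02 and 53.0 CPM at 3 weeks and 38.5, 54.1 and 38.6 CPM at 6 weeks. The male groups were separate at 1 week and overlapped later. The male log2 fold change was -0.40 ± 0.15 (adjusted p = 0.0413) at 1 week, then -0.22 ± 0.15 (0.329) and -0.24 ± 0.16 (0.287). The 1-week calls stood close to the threshold and were lost without any 1 of 6 of the 7 male libraries (the exception being 1-week replicate 4) and without any 1 of the 8 female libraries, and the female 3-week call was lost without 3-week replicate 3 (adjusted p = 0.0524). With all libraries kept, the female 1-week call was also lost under median-of-ratios scaling (adjusted p = 0.0605), with edgeR (0.0537) and with DESeq2 (0.0539). The female 6-week call held without each library.

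In the ratio of 2 receptor genes within 1 library the scaling of that library cancels, apart from the 0.5 CPM added to both. The log2 ratio of *Osmr* to *Lifr* was below 0 in controls and above 0 after induction. It averaged -1.28 ± 0.10 (SD, n = 3) in male and -1.26 ± 0.16 (SD, n = 4) in female controls. At 1, 3 and 6 weeks it averaged 0.92 ± 0.49, 0.92 ± 0.18 and 0.96 ± 0.26 in males, and 0.95 ± 0.20, 0.95 ± 0.14 and 1.23 ± 0.45 in females. The shift of 2.20, 2.20 and 2.24 in males and 2.21, 2.21 and 2.49 in females separated all induced from all control libraries. *Osmr* alone already separated them, with log2 fold changes of 1.79 to 2.00, against -0.59 to -0.22 for *Lifr*. In males at 3 and 6 weeks *Lifr* overlapped control and was not called. The separation of the ratio is therefore not independent of the values given above for *Osmr*. The two-sided exact permutation p was 0.0286 in 5 of the 6 comparisons, the smallest that 4 against 3 or 4 libraries allow, and 0.1 in males at 6 weeks, the smallest for 3 against 3. Adjusted over the 18 ratio tests these became 0.0857 and 0.2, neither under 0.05.

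The ratio of *Il11ra1* to its partner *Il6st* differed from control in females by -0.86 at 1 week, with no overlap (exact permutation p = 0.0286, adjusted 0.0857), and by -0.52 and -0.49 at 3 and 6 weeks (p = 0.0571 and 0.0571, adjusted 0.129). In males its differences were 0.16, -0.24 and 0.21, and all groups overlapped. The ratio of *Il6ra* to *Il6st* differed from control by -0.08 to 0.31 over the 6 comparisons, with overlap in each.

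**Figure D3:**
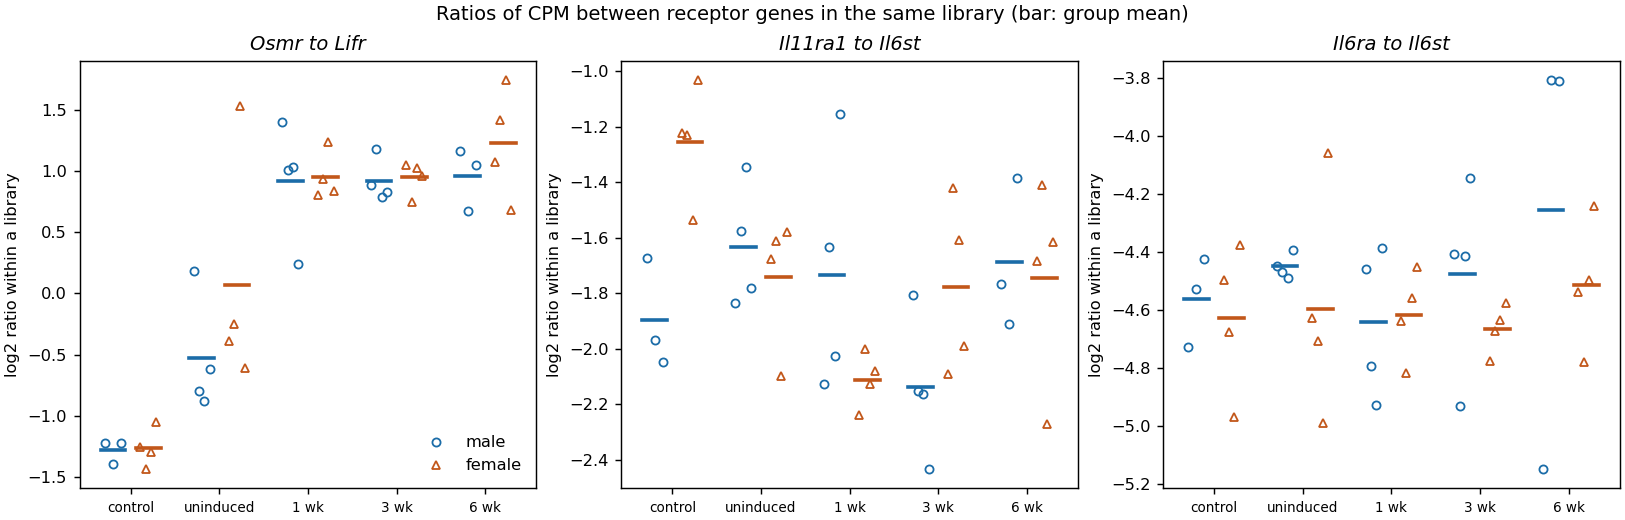
Log2 ratio of CPM + 0.5 between pairs of receptor genes in each library by group, circles for males, triangles for females and bars for group means. *Osmr* to *Lifr* moves from means of -1.28 and -1.26 in controls to between 0.92 and 1.23 after induction. Its uninduced libraries run from -0.88 in male replicate 3 to 1.53 in female replicate 3, which lies above the induced means. *Il11ra1* to *Il6st* is highest in female controls.

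The ligands *Clcf1* and *Ctf1* were expressed at a few CPM and were not called in any comparison of the reported fit. *Clcf1* ranged from 1.64 to 1.87 CPM in male and 2.30 to 2.99 CPM in female controls and from 1.11 to 3.63 CPM over the induced libraries of both sexes. In males its 3-week and 6-week values, 1.91 CPM or more, lay above the controls. Its most distant estimate was -0.64 ± 0.28 (SE, adjusted p = 0.0670) in females at 6 weeks, where the groups overlapped at 2.42 CPM in replicate 1. Without that library the estimate was -0.81 (adjusted p = 0.0273), and with all libraries kept the difference was called when only the 2 groups were fitted (0.0188). *Ctf1* ranged from 3.08 to 4.55 CPM over the controls of both sexes. Its single high value was 10.3 CPM in male 6-week replicate 4, against 3.40 and 2.72 CPM in the other two, and this library also had the highest *Il11*, at 819 CPM, and an erythroid marker sum of 15960 CPM, the highest of all libraries. The male 6-week log2 fold change of *Ctf1* was 0.36 ± 0.31 (adjusted p = 0.413) and changed sign to -0.18 without it. *Ctf1* shares 639 exon bases with *Ctf2* on the opposite strand and *Clcf1* shares 311 with *Gm45928* on the same strand, and whether the counting used strand is not given in the sources used here.

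Uninduced hearts expressed *Il11* at 15.5 CPM or more, and among the other members *Osmr* had the largest estimates. Uninduced males had 55.4, 31.2, 25.2 and 30.5 CPM of *Osmr* and uninduced females 38.5, 36.5, 94.9 and 25.8 CPM, all above the controls of their sex. The log2 fold change was 0.70 ± 0.20 (SE, adjusted p = 0.159) in males and 0.93 ± 0.25 (0.0519) in females, neither called. In females it was called by the quasi-likelihood test of edgeR on recovered reads (1.12, adjusted p = 0.0254) and by DESeq2 (1.13, 0.00117), and in males by DESeq2 alone of these (0.78, 0.0293). Groups did not overlap for *Il11ra1* in males, at 51.3 CPM or more, for *Il6ra* in females, at 5.66 CPM or more, and for *Lifr* in females, at 50.7 CPM or less, where 14.9% of all male and 8.24% of all female genes did not overlap either. None of the 7 members passed the reported test in uninduced hearts, at a background of 0.597% of genes called in males and 2.87% in females.

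Female uninduced replicate 3 had the highest *Il11* of the uninduced libraries, 49.1 CPM, and also the highest *Osmr*, the highest *Il6st* (216 CPM against 152 to 176 CPM in the other females) and the lowest *Lifr* (32.5 CPM against 39.5 to 50.7 CPM). Its *Socs3*, the STAT3 feedback inhibitor, stood at 56.1 CPM against 6.42 to 13.8 CPM in the other uninduced females and 2.40 to 3.68 CPM in female controls. Its *Il11ra1* and *Il6ra* lay within the range of the other uninduced females. Summed macrophage markers were highest in this library (541 CPM against 397 to 497 CPM) and cardiomyocyte markers lowest (44957 CPM against 53213 to 58997 CPM). Its fibroblast sum (2827 CPM) lay within the range of the others. Its sums for activated fibroblast markers (258 CPM against 306 to 456 CPM) and for pericyte and smooth muscle markers (725 CPM against 905 to 936 CPM) were the lowest. The part of these differences in its values was not tested. In males, replicate 1 had the highest *Osmr* and *Socs3* (26.7 CPM) of its group, while its *Il11*, 18.4 CPM, lay between those of replicates 3 and 4. Female uninduced *Lifr* had a log2 fold change of -0.40 ± 0.12 (adjusted p = 0.0879), which was called without replicate 1 (-0.50, adjusted p = 0.0238).

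**Figure D4:**
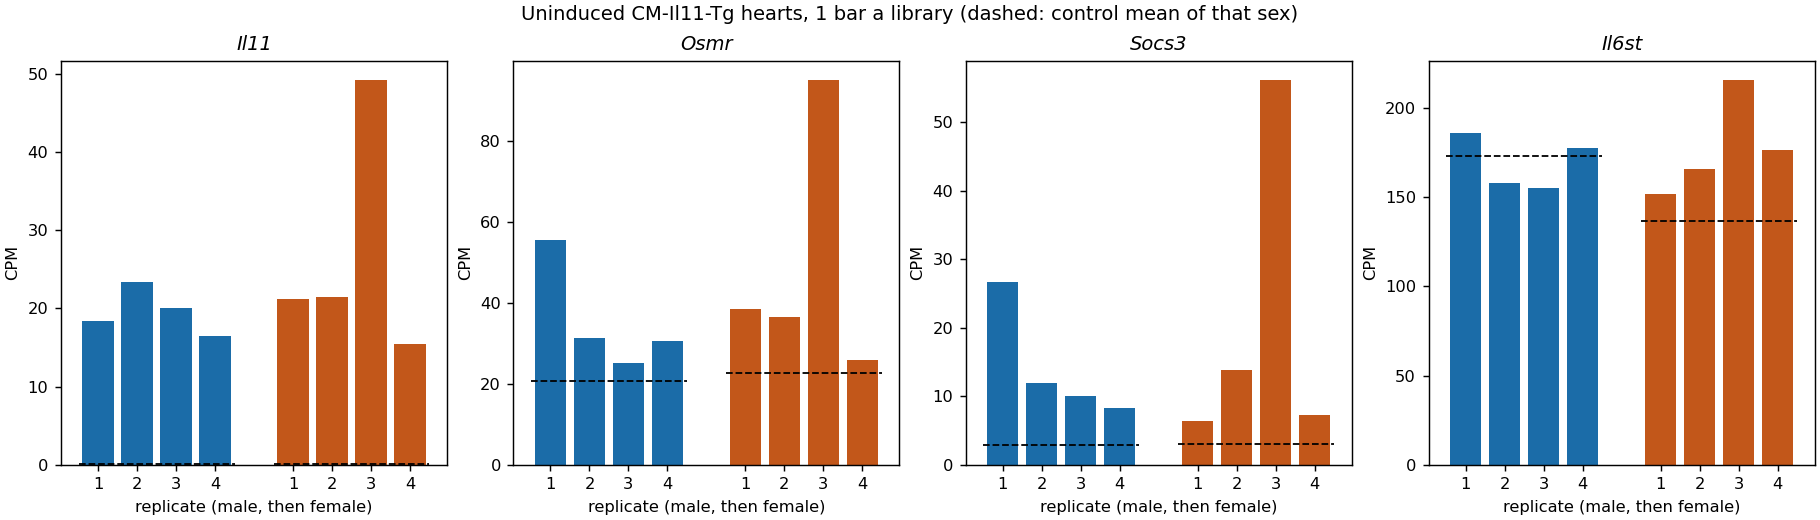
CPM of *Il11*, *Osmr*, *Socs3* and *Il6st* in the 8 uninduced CM-Il11-Tg libraries, 1 bar each from 0, males then females; dashed lines give the control mean of that sex. Female replicate 3 is the highest bar in all 4 panels.

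Against uninduced hearts of the same genotype, the receptor chains other than *Lifr* rose. The uninduced animals received no tamoxifen, so effects of the drug itself cannot be told apart from those of induction. In males *Osmr*, *Il6st* and *Il11ra1* were called at 1 week (18.8% of all genes called), *Osmr*, *Il6st* and *Il6ra* at 3 weeks (16.1%) and all 4 at 6 weeks (20.4%). In females *Osmr*, *Il6st* and *Il6ra* were called at 1 week (12.6%) and all 4 at 3 weeks (16.7%) and at 6 weeks (22.8%). *Osmr* exceeded uninduced hearts by 1.09 ± 0.19, 1.28 ± 0.19 and 1.30 ± 0.20 on the log2 scale in males (SE, adjusted p = 0.000361, 6.96e-05 and 0.000114) and by 0.96 ± 0.25, 0.88 ± 0.25 and 0.97 ± 0.25 in females (0.015, 0.02 and 0.00821). *Il6st* exceeded them by 0.57 ± 0.11, 0.72 ± 0.11 and 0.56 ± 0.12 in males and 0.65 ± 0.14, 0.63 ± 0.14 and 0.83 ± 0.14 in females, all with an adjusted p of 0.00291 or less. *Lifr* was not called against uninduced hearts, with estimates from -0.35 to -0.17 in males and of 0.07, 0.00 and -0.19 in females at 1, 3 and 6 weeks. Induced and uninduced libraries overlapped for *Osmr* in females at all 3 times (uninduced 25.8 to 94.9 CPM) and in males at 1 week. For *Il6ra* they overlapped in females at 1 and 3 weeks and in males at 6 weeks. For *Il11ra1* they overlapped in males at 1 and 3 weeks and in females at 1 week.

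No member, *Il11* included, was called between time points. The background was 0.0177% of genes for 3 against 1 week, 0.165% for 6 against 1 and 0% for 6 against 3 in males, and 0.218%, 1.03% and 0% in females. The 0 genes called by limma at 6 against 3 weeks stand beside 1072 male and 2572 female genes at an unadjusted p under 0.05 and 0 called by edgeR in either sex. *Il11ra1* in females came nearest, 0.54 ± 0.13 higher on the log2 scale at 6 than at 1 week (SE, adjusted p = 0.0525). *Osmr* differed by -0.08 to 0.21 between any 2 times in both sexes, with standard errors of 0.19 to 0.25, so a change in *Osmr* of that size after the first week was not detectable.

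Per kilobase of canonical transcript, *Il11ra1* and *Il6st* were the most abundant members in controls and *Il6ra* and *Il11* the least. Male controls had 22.3 ± 2.12 CPM per kb of *Il11ra1* (SD, n = 3), 19.9 ± 1.72 of *Il6st*, 5.13 ± 0.38 of *Lifr*, 3.77 ± 0.14 of *Osmr*, 1.81 ± 0.36 of *Ctf1*, 0.97 ± 0.07 of *Clcf1*, 0.80 ± 0.14 of *Il6ra* and 0.04 ± 0.04 of *Il11*. Female controls had the same order, with 27.5 ± 1.61 CPM per kb of *Il11ra1* (SD, n = 4), 15.7 ± 1.5 of *Il6st*, 5.48 ± 0.26 of *Lifr* and 4.10 ± 0.38 of *Osmr*. In males *Il11ra1* and *Il6st*, and *Clcf1* and *Il6ra*, did not differ beyond their spread. Length matters here: over all annotated exons *Il6st* ranked above *Il11ra1* in the controls of both sexes. By that length *Il6ra* (0.78 CPM per kb) also ranked above *Clcf1* (0.47) in male controls. At 6 weeks *Osmr* (15.4 ± 0.68 in males, 15.7 ± 3.39 in females) stood above *Lifr* (4.39 ± 0.91 and 3.65 ± 0.59) in CPM per kb, the reverse of the control order, while *Il6ra* stood at 1.53 ± 0.57 and 1.55 ± 0.31.

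Among the 16627 genes tested in both sexes, the genes whose 8 log2 fold changes against control lay close to a member's, by root mean square (RMS) difference, were as follows. For *Osmr* the nearest were *Lrrc25* (0.12), *Cd302* (0.12) and *Dram1* (0.15), and for *Il6st* they were *Bco2* (0.08) and *Bmp2k* (0.11). *Pcdhb7* (0.11) and *Gpc6* (0.11) were among the nearest to *Il6ra*. *Il11ra1* lay closest to *Fau* (0.11), *Gm9843* (0.11) and *Tnfsf12* (0.11), and *Lifr* to *Mterf3* (0.07), *Zfp982* (0.07) and *Dmd* (0.08), the dystrophin gene. *Il11* had *Serpina3n*, an acute-phase protease inhibitor, as its nearest gene (0.82), with *Mmp3* (2.68) and *Hp* (2.86) farther away. The 8 comparisons share 2 sets of controls, and likeness describes these groups alone.

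Most of the other ligands and receptors of the family that were tested rose with induction. Of 11 genes in that list 5 were tested, and 3, 3 and 4 rose in males and 4, 4 and 4 in females at 1, 3 and 6 weeks, with none falling, where 13.2% to 21.7% of all genes rose. *Il6*, at 0 to 0.0554 CPM in controls, reached 0.14 to 5.22 CPM in induced libraries. In males it passed the filter of 0.5 CPM only through induced libraries, so against control it could only be called higher. The filter left out *Ctf2*, with male means of 0.487 CPM in controls and 0.261, 0.205 and 0.222 CPM at 1, 3 and 6 weeks. It also left out *Osm*, at 0.070 CPM and then 0.402, 0.281 and 0.241 CPM. The counts and the median of this list therefore depend in part on the filter. *Il27ra* rose at 6 weeks by 1.33 ± 0.23 in males and 0.95 ± 0.15 in females, and *Ebi3*, a subunit of interleukin-27, by 1.04 ± 0.28 and 1.40 ± 0.14, and *Il11ra2* by 0.97 ± 0.17 and 0.88 ± 0.12 (log2, SE, all adjusted p of 0.00976 or less). *Cntfr*, the ciliary neurotrophic factor receptor, was not called, with 0.11 ± 0.30 and 0.25 ± 0.25. The median log2 fold change of the 5 genes was 1.04 in males and 0.95 in females at 6 weeks. These 5 include *Il11ra2*, and whether its rise is separate from that of *Il11ra1* is uncertain, because the 2 share read-length sequence.

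Downstream of gp130, most of the listed feedback and early genes of STAT3 rose. The kinases and adaptors are given beside the shares of all genes. Of 10 feedback and early genes 7 rose at each of the 3 times in each sex, beside the same 13.2% to 21.7% of all genes, and between 0 and 2 fell. *Socs3* went from 2.40 to 3.68 CPM in controls to between 54.1 and 94.4 CPM in induced libraries, and was also called in uninduced males (2.01 ± 0.25, SE, adjusted p = 9.48e-05) and uninduced females (2.05 ± 0.39, 0.00449). At 6 weeks the log2 fold changes in males and females were 2.37 ± 0.29 and 2.76 ± 0.28 for *Bcl3*, a nuclear regulator of NF-κB, 2.48 ± 0.17 and 2.64 ± 0.28 for *Il4ra*, the interleukin-4 receptor chain, and 1.91 ± 0.38 and 2.00 ± 0.38 for *Junb*, all with an adjusted p of 0.000873 or less. Of 12 genes for JAKs, STATs and adaptors, 2 rose and 3 fell in males at 1 week. At 3 weeks 2 rose and 2 fell, and at 6 weeks 2 rose and 3 fell. In females 4 rose and 2 fell at 1 week, 3 and 2 at 3 weeks and 4 and 3 at 6 weeks. Over all genes 13.2% to 21.7% rose and 8.1% to 21% fell, so these counts are not read as a result about the list. At 6 weeks 27.1% of all genes in males and 42.7% in females were called in either direction. *Stat3* rose by 0.92 ± 0.16 and 0.91 ± 0.14, and *Shc1*, an adaptor, by 0.37 ± 0.11 and 0.50 ± 0.09. *Ptpn11*, the phosphatase SHP2 that binds gp130, fell by 0.63 in males and by 0.47 in females, and *Gab1*, its docking protein, fell by 0.43 and by 0.37. Of the sheddases that release soluble receptors, *Adam17* was not called, and *Adam10* was called in females at 6 weeks (0.38 ± 0.12, adjusted p = 0.0144).

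**Figure D5:**
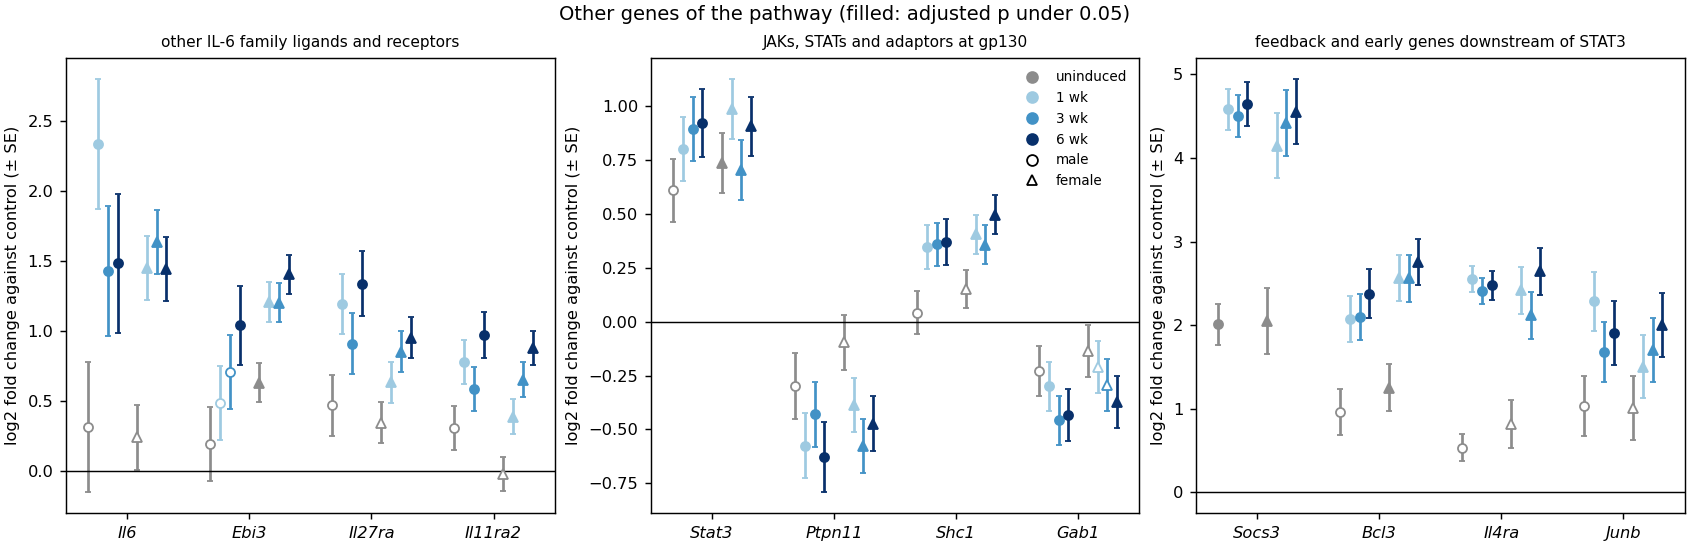
Log2 fold change against control with its standard error for the 4 genes of each of 3 pathway lists with the largest change at 6 weeks, circles for males and triangles for females, from uninduced to 6 weeks; filled points have an adjusted p under 0.05. *Socs3* reaches 4.65 in males, and *Ptpn11* and *Gab1* lie below 0.

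Markers of other cell types differed from control in the same groups, and their part in the values of the family was not tested. Over all genes, 13.2% to 21.7% rose and 8.1% to 21% fell in the induced comparisons with control. In uninduced females 2.41% of all genes rose. Marker counts near these shares are not read as changes of a cell type. All 8 macrophage markers rose at each time in both sexes and in uninduced females, and their summed level was 215 to 374 CPM in controls, 338 to 541 CPM in uninduced and 850 to 1360 CPM in induced libraries. Of 10 fibroblast markers 7 to 9 rose and 1 fell at each time, with a sum of 1566 to 2453 CPM in controls, 2151 to 3336 CPM in uninduced and 5193 to 12669 CPM in induced libraries, and 5 of 6 activated fibroblast markers rose. Of 8 endothelial markers 3 to 6 fell and none rose, and of 10 cardiomyocyte markers 2 to 5 fell and none rose. The cardiomyocyte sum was 43745 to 71008 CPM in controls and 36664 to 62407 CPM in induced libraries. Of 7 pericyte and smooth muscle markers 1 or 2 fell. Of 4 mesothelial markers 3 rose at each time in females and 0 in males. Among the leukocyte lists, 1 to 3 B and plasma cell, 1 to 4 T cell and 1 or 2 neutrophil markers rose, and 1 neutrophil marker fell in males at 3 weeks. All 5 erythroid markers rose in females at 1 week, and none was called in any other comparison with control. Of the 2 or 3 atrial cardiomyocyte markers tested 0 or 1 rose, and the 1 adipocyte marker tested, *Cfd*, rose in uninduced females and in females at 1 week. The adipocyte-defining *Adipoq*, *Plin1* and *Lep* were listed in neither table.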

How the data were processed

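RNA from 40 mouse hearts was sequenced as paired 60-base reads from a directional poly(A) library kit. Per the labels and the study's methods, the authors aligned reads to GRCm39 with STAR, counted them with featureCounts and scaled them in edgeR, and they deposited 1 table per sex of CPM values. These deposited signal values are counts divided by a factor per library. In both, 100% of values were whole multiples of the value of 1 read (tolerance 0.001), so whole reads were recovered. Column sums ranged from 817395 to 1196278.

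Genes reaching 0.5 CPM in 3 or more libraries of a sex entered limma (version 3.58.1, R 4.3.3, trended prior variance), which fitted log2(CPM + 0.5) over the 5 groups together without covariates. A call required an adjusted p (Benjamini-Hochberg over all tested genes) under 0.05. Fold changes are on this scale, which understates changes of low genes. edgeR 4.0.16 and DESeq2 1.42.0 were run on recovered reads as alternatives, beside other pseudocounts, filters, scaling, a fit of only the 2 groups, a replicate block, leaving out each library and a minimum fold of 2. The fits were tested on simulated data. Ratios were compared by exact permutation tests. Rows with a gene identifier but no symbol (29 male, 24 female) were tested under the identifier.

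The members, 4 pathway lists and 13 marker lists were chosen with earlier results of these data known. All members were named, and from each pathway list at most 4 genes with the largest mean size of log2 fold change at 6 weeks. *Cntfr* and the uninduced values of *Socs3* were named in addition. Likeness was computed for members called in at least 4 of the 6 induced comparisons. Some genes of the lists and of the likeness ranking are not reported here, and the list counts and medians leave them out. Positions and sequences come from GRCm39 and its GENCODE annotation, of which the vM39 release was used here. Male libraries with contradictory labels (2) were left out of all comparisons.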

Additional observations from a re-analysis of the deposited data

Results flagged for a closer look

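In groups of 4 libraries, the gap between the outermost library and its neighbour was set against the whole range of log2(CPM + 0.5) for 22 genes, and 7 of 176 groups passed Dixon's 95% limit, where chance gives about 1 in 20. *Il11ra1* stood at 60.6 CPM in male uninduced replicate 3, and its copy *Il11ra2* stood apart in the same library at 14 CPM and in female 6-week replicate 2 at 32.1 CPM. *Il6* was high in male 3-week replicate 2, at 2.32 CPM, and at 0 CPM in female control replicate 1. The second gap is that between 0 and 1 read. No control exceeded 0.0554 CPM, the value of 1 read in female control replicate 4. *Il27ra* stood at 4.69 CPM in male 1-week replicate 1, and *Il4ra* at 15.1 CPM in female control replicate 2.

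The 2 male libraries whose labels contradict each other, outside every comparison, both held *Il11* above the highest male control. One had 0.597 CPM (15 reads) and the other 511 CPM. Their *Osmr* stood at 18.8 and 110.9 CPM, their *Il6st* at 163 and 282 CPM and their *Lifr* at 51.4 and 55.4 CPM. The group of neither library was inferred from these values.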

How the results depend on the processing

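For *Osmr* in all 6 comparisons with control and *Il6st* in females, direction and call held under every setting and without each library, and *Osmr* to *Lifr* shifts stayed between 2.04 and 2.67 without any 1 library. A minimum fold of 2 left 1 member in each of the 6 male comparisons with control or uninduced hearts, 2 and 3 in females against control at 3 and 6 weeks, and 0 in females against uninduced hearts at 1, 3 and 6 weeks. With only the 2 groups fitted, 2 members were called in males at 6 weeks, 1 and 2 in females against uninduced hearts at 1 and 3 weeks, 2 genes of the JAK, STAT and adaptor list in males at 6 weeks, and 1 sheddase in females at 1 week, as with DESeq2 (1). In uninduced females 1 member was called in place of 0 with pseudocount 0.1, the stricter filter, median-of-ratios scaling, edgeR and DESeq2, and in uninduced males 1 by DESeq2. In females 1 member was called for 6 against 1 week with pseudocount 2 and with DESeq2.

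Replicate numbers gave little sign of pairing between libraries, which this check cannot exclude. The deviations of same-numbered libraries had a mean r of 0.02 in males and 0.03 in females. Between libraries of other numbers it was -0.005 and -0.009. Of 18 male libraries 5, and of 20 female libraries 8, were closest to 1 of their own number. With the replicate block, 1 member was called in uninduced females and 1 in females for 6 against 1 week, and *Ctf1* in males at 3 weeks changed to -0.044. The block also ended the calls of *Il11ra1* in males at 3 weeks (adjusted p = 0.0878) and *Lifr* in males at 1 week (0.0603) and added *Clcf1* in females at 6 weeks (0.0332) and *Osmr* in uninduced females (0.0209), and it changed no other call of a member against control.

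Without 1 library at a time, members called against control ranged from 3 to 4, 2 to 4 and 3 to 4 in males at 1, 3 and 6 weeks and from 0 to 1 in uninduced females. The 2 came without control replicate 1, and the 1 without uninduced replicate 1 or 4. Against uninduced hearts they ranged from 2 to 4 in males at 6 weeks (2 without 6-week replicate 4) and from 2 to 4 in females at 3 weeks (2 without uninduced replicate 1 or 2 or 3-week replicate 4), and from 0 to 1 in females for 6 against 1 week (1 without 1-week replicate 2 or 6-week replicate 1). The JAK, STAT and adaptor list ranged from 3 to 5, 1 to 4 and 2 to 6 in males, the low counts without control replicate 3 (also 2 at 3 weeks without control replicate 1). In females it ranged from 2 to 5 at 1 week, with 2 or 3 without control replicate 1 or 2 or 1-week replicate 3 or 4, and from 4 to 7 at 6 weeks, with 4 without replicate 2. The other family list gave 2 to 4 in males at 6 weeks (2 without control replicate 3). Sheddases gave 0 to 1 in females at 1 week (1 without control replicate 3) and 0 to 2 at 6 weeks (0 without replicate 3, 2 without replicate 4).

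Signs changed for uncalled values near 0. Leaving out 1 library gave in uninduced males -0.092 to 0.031 for *Il6st*, -0.066 to 0.157 for *Il6ra*, -0.104 to 0.0033 for *Lifr* and -0.061 to 0.13 for *Clcf1*. *Ctf1* gave -0.093 to 0.143, -0.068 to 0.152 and -0.175 to 0.70 in males and -0.046 to 0.143 and -0.123 to 0.090 in females at 3 and 6 weeks, and *Clcf1* -0.206 to 0.058 in females at 3 weeks. By edgeR *Ctf1* was 0.000893 in males at 1 week, and by DESeq2 0.00922 in females at 6 weeks. *Il11ra1* to *Il6st* ranged from -0.032 to 0.292 in males at 1 week. *Il6ra* to *Il6st* ranged from -0.165 to 0.015 and -0.025 to 0.237 in males at 1 and 3 weeks and from -0.101 to 0.097 and -0.149 to 0.049 in females. With pseudocount 2 it was -0.016 in males at 3 weeks and -0.147 and -0.073 in females at 1 and 6 weeks, and with pseudocount 0 it was 0.030 in females at 3 weeks. The causes were not tested. Depth limits *Clcf1*, *Ctf1*, *Il6* and control *Il11*, which rest on few reads.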

Other observations

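The genes given here were chosen after their values were seen. *Osm*, the ligand of the *Osmr* chain, was listed in males alone and lay under the filter, so it was not tested. It had 3, 0 and 6 reads in the male controls (0.112, 0 and 0.0977 CPM) and between 3 and 16 reads in the 11 induced male libraries, highest at 0.536 CPM in 1-week replicate 1. *Ctf2*, the neighbour of *Ctf1*, was listed in males alone as well, at 0.72 CPM or less in every library of the groups.

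*Socs1*, a second feedback inhibitor of JAK kinases, rose at all 3 times, by 1.26 ± 0.26, 1.32 ± 0.26 and 1.10 ± 0.28 in males and 1.82 ± 0.22, 1.43 ± 0.22 and 1.75 ± 0.22 in females (log2 fold change against control ± SE, limma). Other genes of the same list fell: *Cish* in males at 1 week (-0.99 ± 0.32, adjusted p = 0.0211) and in females at 6 weeks (-0.54 ± 0.15, adjusted p = 0.00722), and *Socs2* in females at 1 week (-0.37 ± 0.13, adjusted p = 0.0363) and 6 weeks (-0.58 ± 0.13, adjusted p = 0.00105). *Cish* and *Socs2* are known chiefly as feedback genes of STAT5. *Jak2*, a kinase bound to gp130, was called in females at all times (0.35 ± 0.10, 0.48 ± 0.10 and 0.64 ± 0.10, adjusted p of 0.0158 or less) and not in males, where its estimates were 0.21 ± 0.15, 0.24 ± 0.15 and 0.01 ± 0.16. The difference between sexes was not tested.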
